A study of Mus musculus with 10 samples.

Results

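Within each genotype of this mouse leukaemia study the arrays differed in how much RNA of the secondary granule genes of neutrophils they held, and the genes whose levels moved with that difference are described here. Each gene was centred on the mean of its genotype, on the log2 scale. Each array then received a score, the mean centred log2 level of 5 marker genes, Ltf, Lcn2, Camp, Ngp and Mmp9. A gene was taken as a member where its centred levels had a Pearson correlation r of 0.8 or more, or of -0.8 or less, with the score over the 10 arrays. Of 20564 genes measured, 490 (2.38%) met the first threshold and 539 (2.62%) the second, 1029 in all. The same values chose the members, so every r below is a description and carries no test. The centring also fixes that the scores of a genotype sum to 0, so that a low array makes the other arrays of its genotype high.

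All samples were leukaemic bone marrow cells from mice of the C57B/6 background, in which a retrovirus carrying the MLL-AF9 fusion and GFP had caused acute myeloid leukaemia. There were 3 wild-type (WT), 4 Ezh2-null and 3 Eed-null samples, described by the submitters as biological replicates. In all 3 genotypes, 100000 cells of replated leukaemic colonies had been injected into mice irradiated with 600 cGy, and pIpC had been given 2 to 3 weeks later to switch on Cre, so the WT samples went through the same induction. Live cells positive for GFP and for YFP, which reported Cre activity, were sorted, and their RNA was amplified before hybridisation to 1-colour Affymetrix arrays. The labels do not name the Cre driver or say which samples shared a colony or a donor, so p-values measure only the spread between these samples. Because the sorted cells were measured in bulk, fewer cells of a type and less RNA per cell cannot be told apart.

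Neutrophils form in the bone marrow from promyelocytes, which make primary granule proteases such as myeloperoxidase and elastase. At the myelocyte stage they turn to secondary granule proteins such as lactoferrin, and later to gelatinase and to the receptors that sense chemoattractants, while cell division and the making of ribosomes wind down. MLL-AF9 holds myeloid cells at a progenitor stage, although part of the leukaemic population can still mature. Ezh2 and Eed are subunits of Polycomb repressive complex 2 (PRC2), which places a repressive methyl mark on histones.

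One array stood apart from the others. The score was 0.82, 0.62 and -1.44 in WT replicates 1 to 3, 0.27, -0.26, -0.17 and 0.16 in Ezh2-null replicates 1 to 4, and 0.33, -0.38 and 0.04 in Eed-null replicates 1 to 3. WT replicate 3 alone made up 57.9% of the sum of squared scores. Of the 490 genes that went up with the score, 449 had their lowest level of all 10 arrays in WT replicate 3, and 494 of the 539 that went down had their highest level there. Without that array 604 genes (2.94%) reached 0.8 and 647 (3.15%) reached -0.8. Of the original members, 185 (37.8%) and 114 (21.2%) were still past the threshold then, and 477 of 490 and 519 of 539 kept the sign of r. Their median r without WT replicate 3 was 0.72 and -0.65. Within the 7 Ezh2-null and Eed-null arrays, where 1019 genes (4.96%) reached 0.8 and 1166 (5.67%) reached -0.8, 215 and 219 of the members did so. Where 2 values of r stand together below, the one after the semicolon or in brackets is without WT replicate 3. The first principal component of all centred genes held 32.4% of their variance and had an absolute r of 0.82 with the score. Without WT replicate 3, with genes centred and scored anew, these values were 33.2% and 0.75. The median intensity of an array lay between 137 and 144 and had an r of 0.21 with the score (0.03 without WT replicate 3), and the 3'-to-5' log2 difference of Gapdh, a measure of RNA integrity, had an r of 0.28 (0.10). Their part in the members' values was not tested.

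The 5 markers chose the score and are given as levels. Ltf, which encodes the iron-binding lactoferrin, had a log2 intensity of 13.62, 13.34 and 10.05 in the WT replicates, 14.00, 13.36, 13.46 and 13.72 in the Ezh2-null replicates, and 13.84, 12.89 and 13.28 in the Eed-null replicates. Lcn2, whose product binds bacterial siderophores, read 13.24, 12.92 and 10.69 on the WT arrays, 13.49, 12.58, 13.08 and 13.60 on the Ezh2-null arrays, and 13.62, 12.78 and 13.62 on the Eed-null arrays. WT replicate 3 was the lowest array for both, by more than the whole range of the other 9. Mmp9, the gelatinase of tertiary granules, read 12.83, 12.53 and 10.42 on the WT arrays, 13.33, 12.07, 12.12 and 12.80 on the Ezh2-null arrays, and 13.58, 12.99 and 13.09 on the Eed-null arrays. Camp, the precursor of an antimicrobial cathelicidin, and Ngp, another neutrophil granule protein, were close to the top of the scale on most arrays, at 13.50 to 14.30 and 13.69 to 14.14 outside WT replicate 3, where they read 12.73 and 12.52. Ezh2-null replicate 2 and Eed-null replicate 2 were lowest in score in their genotypes. Camp and Ngp did not follow the other markers on the first of these arrays, where Camp was the highest of the genotype at 14.30 and Ngp, at 13.99, was above replicates 1 and 3.

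**Figure D1:**
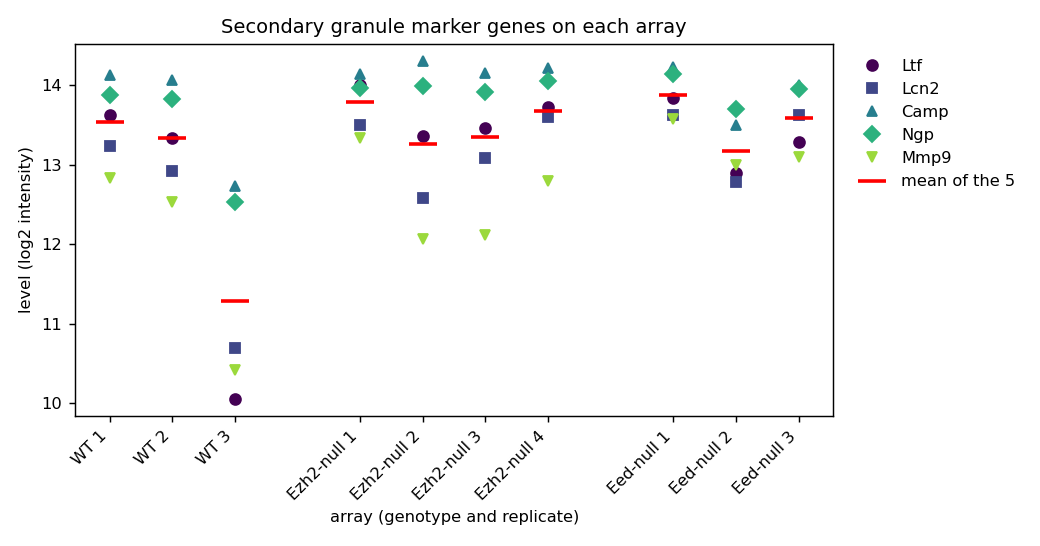
Log2 intensity (y axis) of the 5 marker genes (symbols) and their mean (red line) on each of the 10 arrays, grouped by genotype (x axis). WT replicate 3 is the lowest array for every marker, with Ltf at 10.05 against 12.89 to 14.00 elsewhere.

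The promoters of these genes are shown because C/EBP factors, which bind sites with the letters TTNNGCAA (N for any base), are known to drive the secondary granule genes. The sequences come from the RefSeq promoter table (GRCm38.p6), 250 bases up to the start site, in which Mmp9 had no entry. Capitals mark each match to TTNNGCAA or, on the other strand, TTGCNNAA. Ltf (chr9:111019042-111019291, plus strand) holds a match that begins at position -75 from the start site. Lcn2 (chr2:32387740-32387989, minus strand) holds 1 that begins at -216, and Ngp (chr9:110419558-110419807, plus strand) holds 2, at -138 and -11. Camp (chr9:109849457-109849706, minus strand) holds none in this window. None of these matches overlapped a match to another motif that was searched.
Ltf: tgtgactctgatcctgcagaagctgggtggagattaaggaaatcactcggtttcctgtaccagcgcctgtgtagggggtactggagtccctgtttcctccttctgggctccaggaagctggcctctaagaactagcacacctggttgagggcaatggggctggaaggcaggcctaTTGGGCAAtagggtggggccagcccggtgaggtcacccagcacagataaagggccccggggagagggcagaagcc
Lcn2: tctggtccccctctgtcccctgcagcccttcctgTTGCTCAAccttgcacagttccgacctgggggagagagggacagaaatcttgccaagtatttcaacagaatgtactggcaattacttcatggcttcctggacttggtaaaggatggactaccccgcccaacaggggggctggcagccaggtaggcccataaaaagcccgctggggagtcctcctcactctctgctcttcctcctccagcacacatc
Ngp: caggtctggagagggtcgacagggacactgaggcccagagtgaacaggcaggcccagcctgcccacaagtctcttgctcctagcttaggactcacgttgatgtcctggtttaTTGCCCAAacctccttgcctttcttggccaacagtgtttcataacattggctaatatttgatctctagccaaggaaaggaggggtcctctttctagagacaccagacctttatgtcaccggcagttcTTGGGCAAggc
Camp: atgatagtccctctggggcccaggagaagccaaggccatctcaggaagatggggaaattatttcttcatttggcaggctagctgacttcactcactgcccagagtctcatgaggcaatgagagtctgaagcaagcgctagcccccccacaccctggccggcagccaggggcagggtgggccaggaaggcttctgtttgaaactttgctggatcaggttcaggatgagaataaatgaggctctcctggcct

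Over the list of 21 secondary and tertiary granule genes, 12 reached 0.8 and none -0.8, against 2.38% and 2.62% of all genes. Leaving out the 5 markers, all 16 remaining genes had an r above 0 and 7 reached 0.8, with a median r of 0.75, also 0.75 without WT replicate 3, against 0.00 over all genes. Mmp8, the neutrophil collagenase, was among those with the widest range. It read 11.87, 11.26 and 8.57 on the WT arrays, 12.63, 9.68, 11.59 and 12.49 on the Ezh2-null arrays, and 12.46, 9.18 and 11.52 on the Eed-null arrays (r 0.82; 0.94). The array of lowest score was the lowest for this gene in each of the 3 genotypes. Cd177, a surface protein stored in secondary granules, read 12.97, 12.85 and 10.55 on the WT arrays, 12.94, 12.20, 12.69 and 12.72 on the Ezh2-null arrays, and 12.99, 12.46 and 12.94 on the Eed-null arrays (r 0.98; 0.86). Pglyrp1, a peptidoglycan-binding protein, and Chil3, a chitinase-like protein, had r of 0.96 (0.71) and 0.95 (0.70). Adam8, a metalloprotease, and Arg2, an arginase, did not reach the threshold over 10 arrays at 0.64 and 0.65 but had r of 0.99 and 0.94 without WT replicate 3. Olfm4 and Hp had r of 0.14 (0.34) and 0.20 (-0.01).

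Receptors that mature neutrophils use to find microbes went with the granule genes. Of 23 such receptors and mediators, all had an r above 0 and 10 reached 0.8, with a median r of 0.78 (0.72 without WT replicate 3, with 7 past 0.8). Fpr1, which senses formylated bacterial peptides, read 10.84, 10.45 and 7.20 on the WT arrays, 11.21, 8.96, 10.22 and 10.90 on the Ezh2-null arrays, and 11.36, 9.10 and 10.39 on the Eed-null arrays (r 0.94; 0.95). Its order of arrays within each genotype was that of the score, and replicate 2 of both null genotypes lay more than 1 log2 unit below the other replicates. Fpr2, its paralogue, read 12.50, 12.49 and 9.13, then 12.81, 11.96, 12.46 and 12.86, then 12.99, 11.41 and 12.44 in the same order of arrays (r 0.99; 0.93). Cxcr2, the chemokine receptor that draws neutrophils out of the marrow, read 10.26, 9.94 and 8.12 on the WT arrays, 10.82, 9.73, 10.03 and 10.63 on the Ezh2-null arrays, and 10.99, 9.90 and 9.97 on the Eed-null arrays (r 0.94; 0.91). Csf3r, the G-CSF receptor, read 10.05, 10.001 and 8.53, then 10.40, 9.17, 9.75 and 9.92, then 9.94, 9.45 and 9.99 (r 0.91; 0.81). The lowest array of each genotype was the lowest in score for all 4 of these receptors. C5ar1, the complement C5a receptor, had an r of 0.92 (0.84), and Tlr2, which senses bacterial lipoproteins, 0.87 (0.75). Tlr4 and Lrg1 reached 0.81 and 0.91 but had only 0.19 and 0.32 without WT replicate 3. Cxcr4, which retains cells in the marrow, had an r of 0.13 (0.06).

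The NADPH oxidase, which makes superoxide in phagocytes, had all 6 subunit genes above 0 and 3 past 0.8 (4 without WT replicate 3). Ncf1, an organiser subunit of its cytosolic part, read 13.72, 13.62 and 12.93 on the WT arrays, 13.74, 13.36, 13.58 and 13.69 on the Ezh2-null arrays, and 13.71, 13.48 and 13.73 on the Eed-null arrays (r 0.96; 0.87). WT replicate 3 was the lowest array, and replicate 2 was the lowest of both null genotypes. S100a8, an abundant calcium-binding protein of neutrophil cytosol, read 14.17, 14.21 and 13.33, then 14.28, 14.01, 14.26 and 14.37, then 14.37, 14.04 and 14.19 (r 0.96; 0.81). S100a9, its partner, and S100a11 also passed, at 0.95 (0.66) and 0.90 (0.75), which made 3 of 10 S100 genes. The list was mixed: 7 of the 10 had an r above 0, with a median of 0.41 (0.61). Without WT replicate 3, 1 reached -0.8. The mean level of the list had an r of 0.50 (-0.17). In Eed-null that mean was 10.12 on the array of highest score and 10.62 on that of lowest score.

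Outside these lists, some genes tracked the score as closely as the markers did. Itgb2l, a neutrophil integrin subunit, read 11.80, 11.78 and 8.72 on the WT arrays, 12.39, 11.50, 11.57 and 11.91 on the Ezh2-null arrays, and 12.17, 10.91 and 11.72 on the Eed-null arrays (r 0.99; 0.96). Slc2a3, a glucose transporter, read 12.18, 12.04 and 9.53, then 12.30, 11.72, 11.73 and 12.38, then 13.02, 11.54 and 12.32 (r 0.98; 0.96), and its 3 other probe sets had r of 0.98 to 0.99. Lpcat2, an enzyme that makes platelet-activating factor, had an r of 0.97 (0.94). Rflnb, a partner of filamin, ranked the 10 arrays in exactly the order of the score, with a Spearman rho of 1. The transcription regulators Klf6 and Id2 both had an r of 0.97 (0.86 and 0.84). Among the steepest, Slfn1, a Schlafen gene of leukocytes, had a slope of 1.79 (r 0.97; 0.90), Ceacam10, of the carcinoembryonic antigen family, 1.85 (r 0.94; 0.70), Klra2, a lectin-like receptor, 1.85 (r 0.91; 0.82) and Phlda1 1.85 (r 0.89; 0.87). Plxnc1, a semaphorin receptor, had an r of 0.98 (0.88). Other probe sets of these genes were mixed. They had r of 0.33 and 0.65 for Plxnc1, 0.70 and 0.43 for Id2, and 0.75 and 0.78 for Itgb2l. For Ceacam10 r was 0.93 and 0.13, for Lpcat2 0.79, for Rflnb 0.94 and 0.93, and for Klf6 0.86 to 0.95. A dim probe set of Slfn1, at a mean log2 level of 3.31, had an r of -0.32. Over all 490 genes the median slope was 0.52 log2 units per unit of score, the range 0.08 to 2.02, and 78 had a slope of 1 or more.

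**Figure D2:**
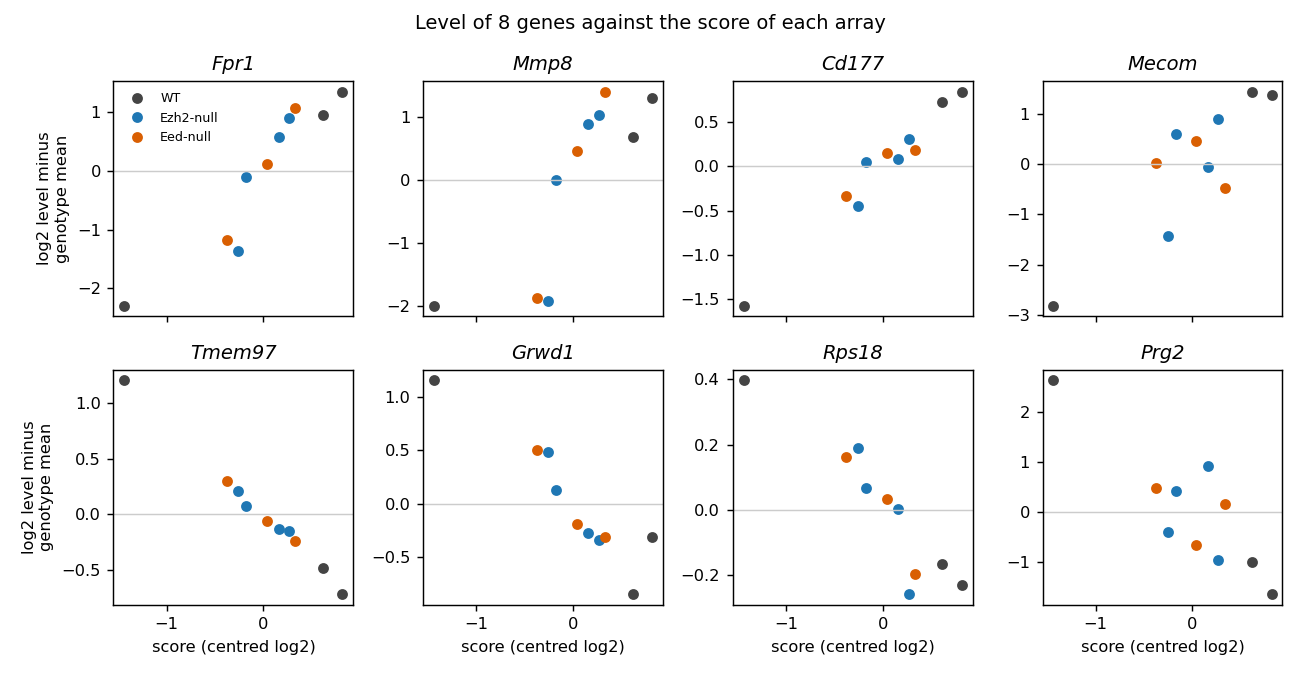
Centred log2 level (y axis) of 8 genes against the gradient score (x axis, mean centred log2 of the 5 markers), 1 point per array with colour for genotype. Fpr1, Mmp8 and Cd177 go up and Tmem97, Grwd1 and Rps18 go down with the score, also without WT replicate 3. The centred level of Mmp8 is about equally low on the array of lowest score in each genotype, so its climb is not even. Mecom and Prg2 are set apart mainly by WT replicate 3.

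Most members fell short of the threshold without WT replicate 3, where 185 of 490 and 114 of 539 stayed past it, and some examples follow. Orm1, an acute-phase protein, had the largest slope, 2.02, and read 9.58, 10.19 and 5.45 on the WT arrays, 9.94, 9.57, 8.99 and 9.51 on the Ezh2-null arrays, and 9.37, 7.54 and 9.65 on the Eed-null arrays (r 0.94; 0.67). Mecom, a transcription factor of stem cells and of some MLL-rearranged leukaemias, read 10.19, 10.26 and 6.01 on the WT arrays, 10.72, 8.39, 10.43 and 9.77 on the Ezh2-null arrays, and 9.86, 10.35 and 10.78 on the Eed-null arrays (r 0.86; 0.26). Bcl11a, a transcription factor of progenitors and lymphoid cells, read 9.19, 9.27 and 7.33, then 9.63, 9.55, 9.32 and 9.22, then 9.52, 9.58 and 10.14 (r 0.87; 0.01). In both, the Eed-null array of lowest score was not the lowest array of its genotype. Other probe sets had r of 0.75 and -0.53 for Mecom and of 0.27 to 0.87 for Bcl11a. The values nearest the threshold show how fine the choice was: Inpp1 (0.8003) and Naxd (0.8010) were inside and had r of -0.02 and 0.67 without WT replicate 3, while Zfp352 (0.7998) and Osr2 (0.7995) were outside and had 0.82 and 0.67. On the other side Sdhd and Pus7l lay just inside -0.8, with -0.55 and -0.05 without WT replicate 3, and Ctps and Srsf10 just outside, with -0.40 and -0.91.

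The genes with the lowest r or the steepest decline were of mixed kinds. Tmem97, a membrane protein involved in sterol transport, ranked the arrays in exactly the reverse order of the score (rho of -1) and read 8.22, 8.45 and 10.14 on the WT arrays, 7.83, 8.19, 8.05 and 7.85 on the Ezh2-null arrays, and 7.71, 8.25 and 7.89 on the Eed-null arrays (r -0.997; -0.98). Lratd2 had an r of -0.98 (-0.82), C230007H23Rik -0.97 (-0.89), Sult1c1, a sulfotransferase, -0.98 (-0.90), Tspan4, a tetraspanin, -0.97 (-0.97), and Fam3b, a secreted cytokine-like protein, -0.97 (-0.73). The steepest slope, -1.84, was that of D2Ertd173e, which read 5.95, 6.04 and 9.77, then 5.62, 6.48, 5.99 and 5.82, then 5.85, 8.32 and 7.15 (r -0.96; -0.89). Tfpi, which inhibits the tissue factor pathway of clotting, read 5.61, 5.99 and 8.84, then 6.07, 7.41, 6.65 and 6.04, then 5.50, 6.56 and 5.34 (r -0.96; -0.88). Both were highest on the array of lowest score in each genotype. Aspa, an aspartoacylase, had an r of -0.95 (-0.76), while Mylk, a myosin kinase, had -0.81 (-0.40).

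Among the lists, genes of ribosome assembly went down with the score. Of 45 Myc and ribosome biogenesis genes, none had an r above 0 and 20 reached -0.8, with a median r of -0.79. That share depended on WT replicate 3 in part: 8 reached -0.8 without it, and the median was -0.51. Grwd1, an assembly factor of the large ribosomal subunit, read 7.41, 6.88 and 8.88 on the WT arrays, 7.36, 8.19, 7.83 and 7.43 on the Ezh2-null arrays, and 7.04, 7.85 and 7.16 on the Eed-null arrays (r -0.93; -0.78). Gnl3, nucleostemin, a nucleolar GTP-binding protein, read 8.36, 7.32 and 10.49, then 8.07, 8.94, 8.29 and 8.16, then 7.96, 8.82 and 8.06 (r -0.91; -0.56). For both genes the array of lowest score was the highest of its genotype in all 3 genotypes. Mybbp1a and Ppan, other nucleolar factors, had r of -0.89 (-0.92) and -0.90 (-0.89), and Npm1, nucleophosmin, -0.89 (-0.83). Myc itself had an r of -0.90 but -0.49 without WT replicate 3, where it read 11.84 against 9.59 to 11.14 elsewhere.

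Cytosolic ribosomal protein genes formed the next list on this side. None of the 26 had an r above 0 and 10 reached -0.8, with a median r of -0.74. Here the 9 arrays without WT replicate 3 gave 11 past -0.8 and a median of -0.76, and the 7 null arrays gave 19. The share of all genes past -0.8 also rose with fewer arrays, from 2.62% to 3.15% and 5.67%. Rps18, of the small subunit, read 12.72, 12.78 and 13.34 on the WT arrays, 12.69, 13.14, 13.01 and 12.95 on the Ezh2-null arrays, and 12.83, 13.19 and 13.06 on the Eed-null arrays (r -0.92; -0.91), a slope of -0.31. Rpl23, of the large subunit, had an r of -0.89 (-0.87). Between the arrays of highest and lowest score, all 26 genes were lower on the high-score array in each of the 3 genotypes, by a median of -0.40, -0.39 and -0.40 log2 units in WT, Ezh2-null and Eed-null. The score differed between those array pairs by 2.26, 0.53 and 0.71 log2 units. Ribosomal protein genes have many near-identical pseudogene copies and probe sets may share sequence with them: 3 dimmer probe sets of Rps18 had r of -0.53, -0.08 and -0.42.

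Mitochondrial genes moved the same way. Of 23 genes for the mitochondrial ribosome and protein import, none had an r above 0 and 6 reached -0.8 (7 without WT replicate 3), with a median r of -0.74. Hspe1, the co-chaperonin of the mitochondrial matrix, read 11.17, 11.13 and 12.39 on the WT arrays, 11.11, 11.83, 11.35 and 11.01 on the Ezh2-null arrays, and 10.80, 11.95 and 11.20 on the Eed-null arrays (r -0.89; -0.91). Hspd1, the chaperonin it works with, read 11.78, 11.19 and 12.88, then 11.23, 12.03, 11.79 and 11.66, then 11.15, 11.84 and 11.37 (r -0.90; -0.71). Both were highest on the array of lowest score in each genotype. Tomm40, the import pore of the outer membrane, had an r of -0.88 (-0.81). None of 25 respiratory chain genes had an r above 0, and 4 reached -0.8 with WT replicate 3 and 4 without it. Among 18 tRNA synthetases 4 reached -0.8, with a median r of -0.59. Genes of amino acid synthesis and one-carbon metabolism were split: of 17, 3 reached -0.8 and 1, Chac1, which degrades glutathione, reached 0.8 (r 0.86; 0.81), 5 had an r above 0, and the median was -0.42 (-0.14). In Ezh2-null 10 of these 17 were higher on the array of highest score. Shmt2, which feeds one-carbon units in mitochondria, had an r of -0.90 (-0.84), whereas Psat1, of serine synthesis, had -0.84 but -0.13 without WT replicate 3.

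The E-box CACGTG, which Myc binds, is shown in the promoters of a chaperonin gene and a ribosomal protein gene that declined. Both are examples that hold it and are not typical: in the window counted below, 17.3% of the promoters of genes that went down did. Capitals mark CACGTG, which reads the same on both strands. Hspd1 (chr1:55088244-55088493, minus strand) holds it at -80 from the start site, and a second RefSeq promoter of the gene holds none. Rpl14 (chr9:120571267-120571516, plus strand; r -0.80, -0.83 without WT replicate 3) holds it at -168.
Hspd1: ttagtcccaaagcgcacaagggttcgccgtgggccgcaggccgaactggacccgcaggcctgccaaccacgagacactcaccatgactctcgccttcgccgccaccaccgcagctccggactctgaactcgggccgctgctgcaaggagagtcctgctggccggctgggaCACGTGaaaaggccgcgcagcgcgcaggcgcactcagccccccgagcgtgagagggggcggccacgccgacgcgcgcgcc
Rpl14: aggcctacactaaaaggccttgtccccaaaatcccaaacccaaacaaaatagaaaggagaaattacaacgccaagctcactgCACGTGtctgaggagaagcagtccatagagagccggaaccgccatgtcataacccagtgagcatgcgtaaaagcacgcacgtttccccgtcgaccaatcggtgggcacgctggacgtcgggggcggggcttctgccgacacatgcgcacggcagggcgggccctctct

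The motif counts over all members were read against the promoters of all measured genes, in windows of 250 bases before to 50 after the start site and on both strands. Of 480 promoters of genes that went up, 52 (10.8%) held the C/EBP motif, against 9.34% of the 17888 promoters of measured genes and 10.8% of all 32851 promoters in the table. The PU.1 motif GAGGAAG was in 17.1%, against 13.4% and 13.6%. Of 508 promoters of genes that went down, 88 (17.3%) held CACGTG, against 8.82% and 7.15%, and 9.84% held the E2F motif TTCCCGC, against 6.80% and 4.6%. The cell cycle motif TTTGAA was in 12.9% of the promoters of genes that went up and 10.8% of those of genes that went down, both below its 13.3% and 17.9%. The granule list had the C/EBP motif in 7 of 18 promoters (38.9%) and the PU.1 motif in as many, 7 of 18 (38.9%). The ribosome biogenesis list had CACGTG in 10 of 41 (24.4%), the PU.1 motif in 7 (17.1%) and the E2F motif in 4 (9.76%). Promoters differ in base composition, with a median of 17 and 20 CpG sites in the members that went up and down, 16 over measured genes and 3.5 in the granule list, and a match is a description of letters, not of a bound site.

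**Figure D3:**
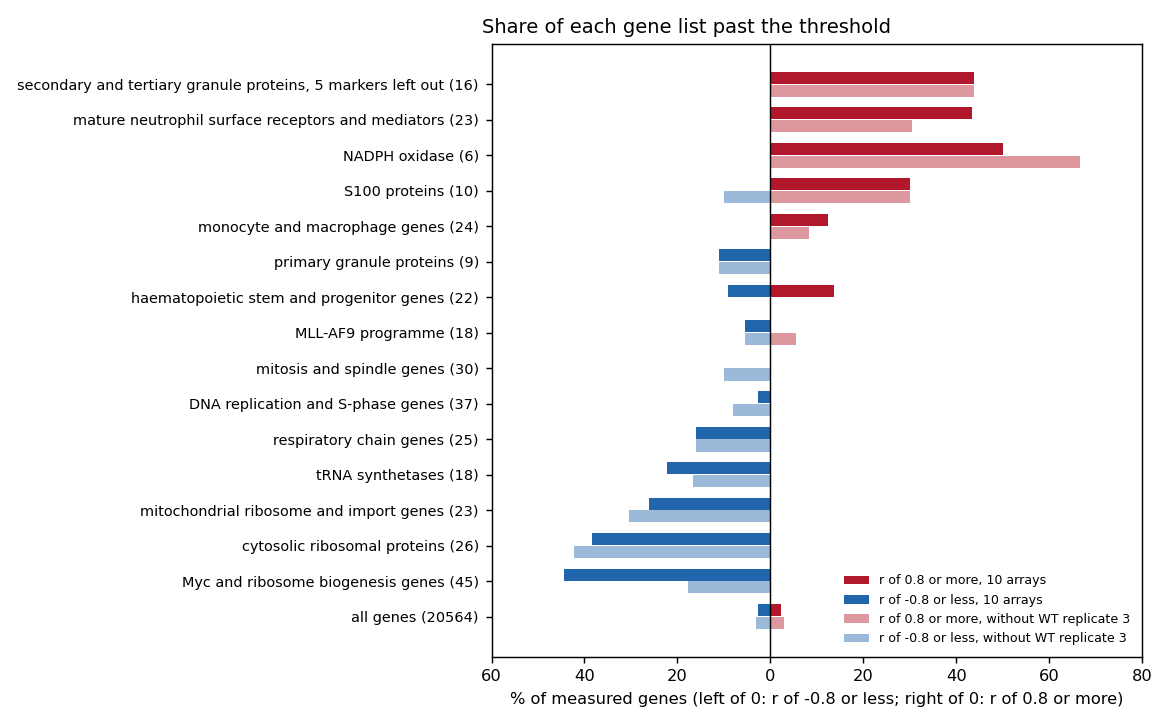
Percent of the measured genes of each list (y axis, number measured in brackets) with an r of -0.8 or less (left of 0) or of 0.8 or more (right of 0) with the score (x axis), over 10 arrays (dark) and without WT replicate 3 (pale). Granule, receptor and oxidase lists lie on the right, and ribosomal, ribosome biogenesis and mitochondrial lists on the left, against 2.38% and 2.62% of all genes.

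Stem cell and MLL-AF9 genes did not follow the score as lists. Of 22 stem and progenitor genes, 3 reached 0.8 and 2 -0.8 and none did so without WT replicate 3, with 11 of 22 above 0 and a median r of 0.02. Msi2, an RNA-binding protein of stem cells, went down with the score: it read 8.14, 8.65 and 10.01 on the WT arrays, 8.19, 8.85, 8.65 and 8.87 on the Ezh2-null arrays, and 9.9996, 10.74 and 9.92 on the Eed-null arrays (r -0.92; -0.75). Other probe sets of Msi2 had r from -0.82 to -0.03. Of 18 genes of the MLL-AF9 programme, 1 reached -0.8: Myb (r -0.85; -0.73). Without WT replicate 3, 1 of these 18 genes reached 0.8 and 1 other than Myb reached -0.8. On the 7 null arrays 3 reached 0.8 and 1 reached -0.8, where 4.96% and 5.67% of all genes did. Hoxa9, a direct target of MLL fusions, had an r of -0.33 (-0.39) and Meis1, its cofactor, 0.44 (0.79). Cell cycle genes lay on the negative side, with few past the threshold. None of 30 mitosis and spindle genes passed over 10 arrays, 5 had an r above 0, the median was -0.36, and 3 reached -0.8 without WT replicate 3. On the array of highest score 19, 30 and 20 of these 30 were lower than on that of lowest score in WT, Ezh2-null and Eed-null. Of 37 replication genes 1 reached -0.8, Mcm3, a subunit of the replicative helicase (r -0.90; -0.86), but only 2 had an r above 0 and the median was -0.62. Their mean level had an r of -0.75 (-0.72) with the score, and 33, 34 and 32 of the 37 were lower on the array of highest score. Of 21 interferon response genes, which answer viral infection, 20 had an r above 0 and 2 reached 0.8 (5 without WT replicate 3), with an r of 0.68 (0.86) for their mean level.

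Later granule, receptor and oxidase genes went up with the score, and the primary granule genes of the earlier stage leaned the other way. Of the 9 measured, 2 had an r above 0, the median was -0.32 (-0.60, and -0.78 on the 7 null arrays), and 1, Cst7, a cystatin, reached -0.8 (r -0.84; -0.47). Elane, neutrophil elastase, had an r of -0.32 over 10 arrays and -0.79 without WT replicate 3, Prtn3, proteinase 3, -0.52 (-0.89), and Ctsg, cathepsin G, -0.56 (-0.76). Mpo, myeloperoxidase, had r of 0.25 and -0.60. Primary granule genes were lower on the Eed-null array of highest score than on that of lowest score in 9 of 9 cases, by a median of -1.03 log2 units, but in WT and Ezh2-null 3 of 9 were higher (medians -0.06 and -0.21). Since the primary granule genes were mixed within WT and Ezh2-null, the gradient is named here by its secondary granule genes.

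Markers of other cell types were set beside the score. The mean level of 24 monocyte and macrophage genes had an r of 0.64 with the score (-0.04). It ranged from 8.59 to 9.48 in WT, from 8.46 to 9.17 in Ezh2-null and from 8.19 to 8.81 in Eed-null, and in Eed-null it was lowest on the array of highest score. Of these genes 3 reached 0.8, namely Csf1r (0.80; 0.47), Lgals3 (0.83; 0.81) and Lyz2 (0.96; 0.81). Lyz2, lysozyme, is also abundant in neutrophils. Other probe sets of Csf1r had r of 0.56 and 0.54. The median over the list was 0.45 (-0.04). Of the 24 genes, 21 had an r above 0. On the array of highest score 19, 20 and 10 of them were above the array of lowest score in WT, Ezh2-null and Eed-null. The defining macrophage genes C1qa, C1qb and C1qc had r of 0.05, 0.36 and 0.07 (-0.17, -0.25 and -0.34). None of the 8 class II antigen presentation genes passed, but 6 had an r above 0 and their mean level had an r of 0.60 (0.03). Between the arrays of highest and lowest score their median difference was 1.29, 0.85 and -0.38 log2 units in WT, Ezh2-null and Eed-null. Of 16 eosinophil, basophil and mast cell genes 3 reached -0.8 and none did so without WT replicate 3. As many as 9 of the 16 had an r above 0, with a median r of 0.06 (-0.12). Their mean level had an r of -0.66 (-0.15). Prg2, eosinophil major basic protein, read 6.10, 6.74 and 10.36 on the WT arrays, 7.22, 7.78, 8.59 and 9.08 on the Ezh2-null arrays, and 10.58, 10.89 and 9.76 on the Eed-null arrays (r -0.87; -0.25). Prg3, its paralogue, read 6.73, 6.07 and 9.68, then 8.07, 8.72, 9.24 and 9.003, then 9.40, 10.66 and 9.59 (r -0.94; -0.65). In both genes WT replicate 3 was at the level of the Eed-null arrays and the other WT arrays were lowest of all. The mean level of 14 megakaryocyte and platelet genes had an r of 0.79 (0.49) with the score within a range of 6.68 to 7.19, and none of them passed. Erythroid, B cell, T and NK cell, and stromal lists had no gene past either threshold over 10 arrays. Without WT replicate 3, Cd79b, of the B cell receptor, reached -0.81 and Acta2, smooth muscle actin, 0.81. The mean log2 levels of these 4 lists stayed within 6.33 to 6.57, 6.50 to 6.79, 6.40 to 6.67 and 6.64 to 6.87 over the 10 arrays. The part of these cell types in the gradient was not tested.

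Genes were next chosen on 2 genotypes and read in the third genotype, whose arrays had no part in that choice, with the markers left out. Of 1016 genes chosen as going up on the 7 null arrays, 733 (72.1%) were higher in WT replicate 1 than in WT replicate 3, against 41.6% of all genes, with a median difference of 0.32 log2 units. Of 1166 chosen as going down, 979 (84.0%) were lower there, against 58.3%. In Ezh2-null, replicate 1 against replicate 2, the shares were 74.7% of 1202 and 77.4% of 1213, against 41.7% and 58.3%. In Eed-null, again replicate 1 against replicate 2, they were 67.2% of 973 and 72.7% of 1216, against 55.9% and 44.1%. In each case the genes moved in the chosen direction more often than genes at large did, but each reading is a single pair of arrays. Of the Myc and ribosome biogenesis genes so chosen, 14 of 14 in WT, 27 of 28 in Ezh2-null and 24 of 26 in Eed-null were lower on the array of higher score. For the ribosomal protein genes these counts were 19 of 19, 15 of 15 and 15 of 15, and for the granule genes 8 of 8, 10 of 11 and 7 of 7 were higher. Receptors gave 9 of 9, 14 of 14 and 9 of 12, NADPH oxidase genes 4 of 4, 4 of 5 and 3 of 4, and mitochondrial ribosome and import genes 11 of 11, 9 of 9 and 12 of 15. Monocyte genes gave 2 of 2, 3 of 3 and 3 of 8, and class II genes chosen as going up were higher in 0 of 3 in Eed-null. These counts are to be read beside the whole lists, chosen or not. On the array of higher score, 45, 41 and 41 of the 45 biogenesis genes were lower in WT, Ezh2-null and Eed-null. All 26 ribosomal protein genes were lower in each. Of the 21 granule genes, markers included, 20, 16 and 19 were higher, and of the 23 receptors and mediators 18, 21 and 19.

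A further reading came from probe sets that the choice did not use, although they measure the same RNA on the same arrays. For 266 of the genes that went up there were 539 other probe sets, of which 485 had an r above 0 and 166 (30.8%) reached 0.8, against 2.36% of all 17198 such probe sets. For 284 of the genes that went down there were 523, of which 442 had an r below 0 and 105 (20.1%) reached -0.8, against 2.41%.

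**Figure D4:**
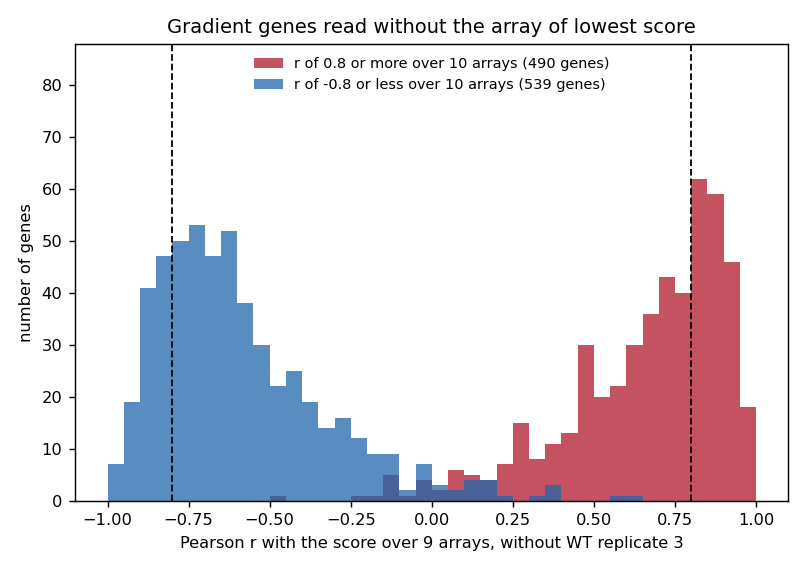
Number of member genes (y axis) by their correlation r with the score over the 9 arrays without WT replicate 3 (x axis, bins of 0.05), for the 490 genes with r of 0.8 or more and the 539 with r of -0.8 or less over 10 arrays; dashed lines mark 0.8 and -0.8. Most genes keep their sign (477 and 519), and 185 and 114 stay past the dashed lines.

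The study compared the genotypes, and the spread along the gradient entered those comparisons. Centring removed the genotype means from the score, so the rule did not use the differences between genotypes in marker level. The 2 are not independent, however, since WT replicate 3 dominates the score and also lowers the WT mean. The mean log2 level of the 5 markers was 12.72 ± 1.25 in WT (SD, n = 3), 13.52 ± 0.25 in Ezh2-null (n = 4) and 13.55 ± 0.36 in Eed-null (n = 3). Ezh2-null exceeded WT by 0.80 and Eed-null by 0.83 log2 units, both smaller than the spread between the WT arrays. Two-sided exact permutation tests over arrays gave p = 0.286 and p = 0.40, and p = 0.914 for the difference of 0.03 between the null genotypes (0.60, 0.60 and 0.914 after adjustment over these 3 comparisons). The smallest p these designs allow is 0.0571, 0.10 and 0.0571. Without WT replicate 3 the differences from WT were 0.08 and 0.11.

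limma tests across all 20564 genes, whose comparisons with WT share the WT arrays, called few genes at an adjusted p under 0.05: 5 (0.0243%) in Ezh2-null against WT, 27 (0.131%) in Eed-null against WT and 16 (0.0778%) in Eed-null against Ezh2-null. Members of the gradient made up 1, 2 and 1 of these. Hebp1, a haem-binding protein (r -0.87; -0.59), read 6.66, 6.41 and 7.66 on the WT arrays, 9.78, 10.02, 10.14 and 9.99 on the Ezh2-null arrays, and 9.17, 9.72 and 8.82 on the Eed-null arrays. The null arrays all lay above the WT arrays, with a rise of 3.07 ± 0.30 log2 units (SE; 8.42-fold, limma adjusted p = 0.0101) in Ezh2-null and of 2.33 ± 0.32 (5.03-fold, limma adjusted p = 0.0286) in Eed-null. Stard10, a lipid transfer protein (r 0.84; 0.60), read 8.31, 8.31 and 7.46 on the WT arrays, 8.33, 7.91, 7.95 and 7.65 on the Ezh2-null arrays, and 10.77, 10.24 and 10.52 on the Eed-null arrays. It rose by 2.49 ± 0.27 against WT (5.61-fold, limma adjusted p = 0.00797) and by 2.55 ± 0.26 against Ezh2-null (5.87-fold, limma adjusted p = 0.00342), the Eed-null arrays lying above all others. In Eed-null against WT, 7 members were called without WT replicate 3, and 1 was called when WT replicate 1 or 2, Ezh2-null replicate 1, 3 or 4, or Eed-null replicate 1 or 2 was left out. In Eed-null against Ezh2-null 3 were called without WT replicate 3. In Ezh2-null against WT none was called without WT replicate 1 or 2 or without any 1 of the Ezh2-null replicates, where with all arrays 3.74% of all genes had an unadjusted limma p under 0.05 (10.4% in Eed-null against WT and 9.18% in Eed-null against Ezh2-null).

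None of the 5 markers was called in any comparison. Ltf differed by 1.30 ± 0.69 log2 units in Ezh2-null (SE, limma adjusted p = 1.00) and by 1.00 ± 0.74 in Eed-null (limma adjusted p = 0.682). Of the 490 genes that went up, 391 had a positive fitted difference in Ezh2-null against WT and 394 in Eed-null against WT, with medians of 0.21 and 0.25 against -0.02 and 0.03 over all genes. Of the 539 genes that went down, 112 and 130 were positive. These counts cannot be read as differences between genotypes: the members were chosen by a score that WT replicate 3 dominates, so leaving that array out moves their differences from WT the other way by construction (168 and 204 of 490, and 412 and 337 of 539, were positive then).

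**Figure D5:**
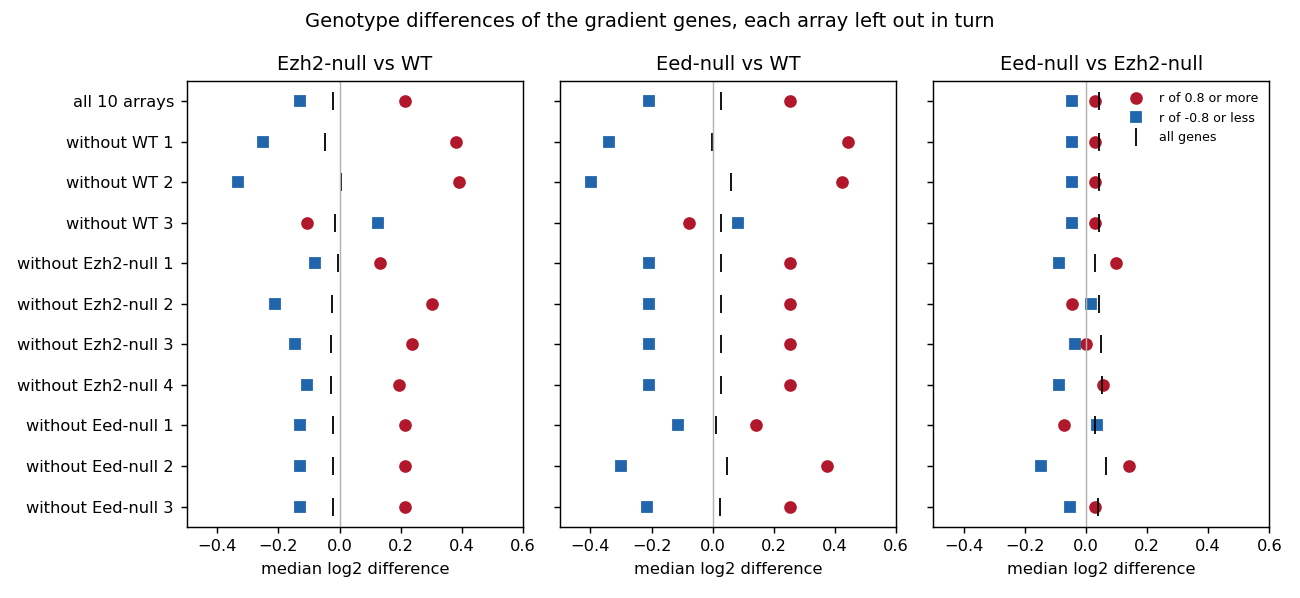
Median fitted log2 difference between genotypes (x axis, 1 panel per comparison) of the 490 genes that went up (circles), the 539 that went down (squares) and all genes (bars), with all 10 arrays and with each array left out in turn (y axis). Against WT the circles lie at 0.21 and 0.25 with all arrays and at -0.11 and -0.08 without WT replicate 3, a shift that the choice of the members fixes.

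The genotypes themselves were not read from the gradient. Ezh2, whose probe sets may lie outside the deleted part, read 10.25, 9.35 and 10.44 on the WT arrays, 9.19, 9.21, 9.36 and 8.91 on the Ezh2-null arrays, and 9.60, 9.71 and 9.49 on the Eed-null arrays, with WT replicate 2 inside the Ezh2-null range. Ezh2-null minus WT was -0.84 ± 0.25 log2 units (SE), which was not called (limma adjusted p = 1.00). Eed gave levels of 10.52, 10.20 and 10.65 on the WT arrays, 10.79, 10.24, 10.40 and 10.30 on the Ezh2-null arrays, and 8.69, 8.34 and 8.67 on the Eed-null arrays, where it fell by 1.89 ± 0.21 log2 units against WT (SE, limma adjusted p = 0.00797). With the score, Ezh2 had an r of -0.56 (-0.07) and Eed of -0.11 (0.77), so neither was a member. Of the 12 PRC2 genes 1, Rbbp7, a histone-binding subunit, reached -0.8, and none did so without WT replicate 3.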

How the data were processed

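RNA of 10 sorted leukaemia samples was measured on 1-colour Affymetrix arrays. The value table held intensity values that the authors had made with RMA, per the submitters' processing notes, whose version is not given in the sources used here. The deposited intensity values were linear. Any value under 1 was set to 1 and the log2 of each was used. Another of the authors' tables, adjusted with ComBat per the file header, covered the WT and Ezh2-null arrays. It served as an alternative only, its 16 values below 0 were set to the floor, and its 9 columns from another series were not used.

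Of 45101 probe sets, 64 control sets, 5820 that had no symbol, 1399 that had more than 1 and 56 whose symbol reads as a date were dropped. The other 37762 were named through RefSeq, as current symbols for 31088 and synonyms for 3656, while 3018 kept the file's name. For each of the 20564 genes the probe set with the highest mean was used. Levels of different genes are not compared, since probes differ in brightness.

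Members, gene lists, tests and alternatives were chosen with earlier results of these data known. Named genes are the markers, the 12 members with the steepest slope and the 6 with the highest or lowest r in each direction, up to 4 members of each list, the genes beside each threshold, the members called between genotypes, and Ezh2 and Eed, not every one of which is described. Other list genes that are named, such as Adam8, Arg2, Hoxa9, Meis1 and the primary granule proteases, were chosen after their values were seen. Correlations over 10 arrays came from Python 3.11.15 with numpy 2.4.6, pandas 2.3.3 and scipy 1.17.1, and figures from matplotlib 3.10.9. Genotypes were compared with limma 3.58.1 (lmFit and eBayes, R 4.3.3, prior df 3.48) on all 3 genotypes, with Benjamini-Hochberg adjustment over all genes. Both steps were tested on simulated data. The number of arrays limits the precision, and replicate numbers did not pair the samples. Promoters came from the RefSeq table, which matched 14275 of the measured genes.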

Additional observations from a re-analysis of the deposited data

Results flagged for a closer look

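In 97 sets of 4 Ezh2-null values examined for an array far from the others, 2 held one, where chance alone gives about 1 in 20. The log2 level of Cpa6, a carboxypeptidase, was 11.98 in Ezh2-null replicate 2 against 11.36 to 11.40 in the other Ezh2-null arrays. That of Insig1, a regulator of cholesterol synthesis, was 8.93 in the same array against 8.33 to 8.43.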

How the results depend on the processing

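The number of genes past the threshold kept within 1.5 times in 19 of 26 alternatives for those that went up and in 18 of 26 for those that went down. Fewer arrays let more genes past a given r by construction. Leaving out each array in turn gave 583 to 1054 genes up and 647 to 1111 down, and the 2 arrays farthest from the median score (WT replicates 1 and 3, which leaves the 7 null arrays in effect) gave 1019 and 1166. The WT and Ezh2-null arrays alone gave 978 and 1216, the values adjusted with ComBat 885 and 1056, and no centring on genotype 321 and 308. The 7 null arrays as a set, added after seeing the data, gave the same 1019 and 1166, and the first component and list means without WT replicate 3 were also added. The replicate numbers did not pair the samples: correlations of same-numbered deviations were 0.37, -0.17 and 0.01 between WT and Ezh2-null, 0.06, -0.23 and -0.04 between WT and Eed-null, and 0.07, 0.13 and 0.06 between the null genotypes. With the replicate block 1402 genes went up and 1240 down, and the limma calls among members were 0 for Ezh2-null against WT, 1 for Eed-null against WT and 0 for Eed-null against Ezh2-null.

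The marker level of Eed-null minus Ezh2-null, 0.03, changed sign without Ezh2-null replicate 2 (-0.06), Ezh2-null replicate 3 (-0.03) or Eed-null replicate 1 (-0.14), and with a score without Lcn2 (-0.00146) or Mmp9 (-0.12). Its range over single arrays left out was -0.14 to 0.22, and the differences from WT ranged from 0.08 to 1.21 and 0.11 to 1.24. Called members ranged over single arrays left out from 0 to 1, from 1 to 7 and from 1 to 3 in Ezh2-null against WT, Eed-null against WT and Eed-null against Ezh2-null. With the score as a covariate, which takes the members' residual spread out by construction, they were 12, 33 and 5. With only the groups compared they were 0 in Eed-null against WT and 3 in Eed-null against Ezh2-null, where the mean of all probe sets gave 2. The cause was not tested. Over all these alternatives limma called 0 to 20, 1 to 75 and 4 to 36 genes in all.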

Other observations

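Gene families outside the lists were counted after their values were seen, so these counts are descriptions only. Of 49 actin cytoskeleton genes, 18 reached 0.8, with 45 above 0 and a median r of 0.67 (14, 43 and 0.61 without WT replicate 3). Coro1a, a coronin of leukocytes, had an r of 0.88 (0.92), Flna, filamin A, 0.94 (0.86), and Pfn1, profilin, 0.86 (0.82). Lcp1, plastin of leukocytes, and Arpc2, a subunit of the Arp complex that branches actin, missed the threshold at 0.78 and 0.75 but had 0.97 and 0.99 without WT replicate 3.

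Factors of protein synthesis and folding lay on the other side. Of 52 translation initiation factor genes, 8 reached -0.8 and none 0.8, with 44 below 0 and a median r of -0.60. Without WT replicate 3, 7 reached -0.8 and 2 reached 0.8, and the median was -0.49. Eif4a1, an RNA helicase of initiation, had an r of -0.89 (-0.97). Of 19 heat shock protein genes 7 reached -0.8 (5 without WT replicate 3), among them Hsp90ab1 with -0.88 (-0.85) and Hsph1 with -0.92 (-0.84). Calr, calreticulin, a chaperone of the endoplasmic reticulum, had an r of -0.95 (-0.90). Mxd1, an antagonist of Myc, had an r of 0.86 (0.71), and Bcl6, a transcriptional repressor, 0.91 (0.82).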
